A study of Mus musculus with 32 samples.

Results

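The miR-30 family was taken as every row of the deposited small RNA table whose name is miR-30a, miR-30b, miR-30c, miR-30d, miR-30e or miR-30f, on either arm of the hairpin. The rule found 12 names among 1030 distinct rows, and it used no measured value. A name in more than 1 row was represented by its most abundant row. Of the 12 names, 11 reached an average of 1 RPM across all 32 libraries and were tested, and miR-30f stayed under that minimum.

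Small RNA was sequenced from mesenteric arteries, the vessels that supply the gut, of male C57BL/6J wild-type mice aged 10 to 12 weeks. Mice received angiotensin II (Ang II), a peptide hormone that constricts vessels and raises blood pressure, under the skin at 1000 ng/kg/min, or served as shams without it. Treatment lasted 7 days or 14 days, which gave a sham and an Ang II group at each time. Each of these 4 groups held 8 libraries from 1 µg of RNA, out of 10 mice per group in the labels. Arteries were freed of fat and veins and homogenised whole, so all cell types of the wall were measured together. In such bulk samples, fewer cells of a type and less RNA per cell cannot be told apart. Each library carries its own number in the labels, but separate mice are not stated, so p-values measure the spread between these libraries.

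A microRNA (miRNA) is a short RNA that guides Argonaute proteins to messenger RNAs, mostly through its seed, bases 2 to 8 from the 5′ end. Each hairpin can yield a 5p and a 3p strand, and in the miR-30 family the 5p strand is the usual guide. Members of the family are known to repress connective tissue growth factor in rodent heart, RUNX2 in human coronary smooth muscle cells and the Notch ligand DLL4 in endothelial cells.

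The sequences are shown because they set out which names can bind through the same seed and which are too alike to be told apart with certainty. Mature sequences came from RefSeq (GRCm38.p6), where 8 of the 12 names matched. Both arms of miR-30b and of miR-30d are named only. Each is written 5′ to 3′ with the seed in capitals.
miR-30a-5p: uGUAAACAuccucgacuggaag
miR-30e-5p: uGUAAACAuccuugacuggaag
miR-30c-5p: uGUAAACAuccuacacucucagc
miR-30a-3p: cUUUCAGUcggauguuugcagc
miR-30e-3p: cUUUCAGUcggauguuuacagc
miR-30c-1-3p: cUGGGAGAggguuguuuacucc
miR-30c-2-3p: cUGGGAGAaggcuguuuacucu
miR-30f: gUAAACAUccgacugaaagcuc

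The 5p strands of miR-30a, miR-30c and miR-30e carried the same seed. Counting from 1 at the 5′ end, miR-30a-5p and miR-30e-5p differed at 1 of 22 positions (C13U), and miR-30a-5p and miR-30c-5p at 5 positions between 13 and 20. The 3p strands of miR-30a and miR-30e shared another seed and differed at 1 position (G18A). Yet another seed was shared by miR-30c-1-3p and miR-30c-2-3p, which differed at 3 positions. The sources used here do not state how reads that match near-identical names were assigned, so values of names that differ at 1 position are uncertain to that extent. The first 10 bases of miR-30f equal miR-30a-5p from its base 2 onwards, so its seed is shifted by 1 base. One name outside the rule has the 5p seed, miR-384-5p (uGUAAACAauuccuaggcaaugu), and it was present in all 32 libraries at a mean of 5.59 RPM (range 2.0 to 12.6).

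The hairpins lie in 3 pairs on GRCm38, with gene models from GENCODE. Mir30a (chr1:23272269-23272339, plus strand, no other annotated gene) and Mir30c-2 (chr1:23291701-23291784, plus strand, in an exon of the lincRNA gene Gm27028) are 19.4 kb apart. Mir30c-1 (chr4:120769534-120769622) and Mir30e (chr4:120772606-120772697) lie 2.98 kb apart on the minus strand, in introns of Nfyc, which encodes a subunit of the CCAAT-binding factor NF-Y. Mir30f spans the same bases as Mir30e on the plus strand, and its mature sequence lies opposite 19 bases of miR-30e-3p. Mir30b (chr15:68337415-68337510, minus strand, in an exon of Gm26621) and Mir30d (chr15:68341208-68341289, minus strand, in exons of Gm37296 and Gm20732) are 3.70 kb apart. Because 2 hairpins give the identical miR-30c-5p, its reads cannot be divided between chromosomes 1 and 4. The table held miR-30c-5p in 2 rows, which differed in 11 libraries by at most 2 reads, and 1 of them was used.

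Values are normalised RPM, reads scaled per M (mega) by the authors with a size specific to each library. The libraries held 11.4 to 18.8 M reads in distinct rows, and 3 reads corresponded to 0.0888 to 0.351 RPM. Of the marker lists, smooth muscle miR-143 and miR-145 had summed levels of 196039 to 739444 RPM per library. Endothelial miR-126 reached 12975 to 35282 RPM and the liver marker miR-122-5p 0 to 5.83 RPM. Libraries also differed within groups along a first principal component that was computed without the miR-30 rows and held 35.4% of the within-group variance. Its sign was turned so that it rose with miR-30a-5p, so which side is called class 1 was set by that strand. By this sign, 13 libraries formed class 1 and 19 formed class 2. Class 1 held 3 sham and 5 Ang II libraries of 7 days and 3 sham and 2 Ang II libraries of 14 days. A library's number in the labels begins with 26, 27, 28 or 30, here called its number series. Series 27 and 28 held all 16 of the 7-day libraries and 3 of the 14-day ones. Series 26 and 30 held the other 13, so series and time can hardly be told apart. Treatment was also unbalanced over the series at 14 days. Series 26 held 6 sham and 5 Ang II libraries, series 27 held 1 and 0, series 28 held 1 and 1, and series 30 held 0 and 2.

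The family was dominated by 1 strand. The miR-30a-5p guide was the fifth most abundant distinct row, at 32845 ± 14328 RPM (SD, n = 32) or 3.17% ± 0.783 of a library's reads. It made up 71.6% ± 6.65 of the summed family level, with a range of 61.0 to 83.2%. Next came miR-30d-5p with 13.7% ± 2.91, miR-30c-5p with 7.57% ± 2.73 and miR-30e-5p with 3.28% ± 0.884 of the sum (SD, n = 32 each). These shares use 1 of the 2 miR-30c-5p rows, and whether both rows hold the same reads is not stated. The rows differed by at most 2 reads, where the row used held 21980 to 78919 reads per library. Their sum may therefore count the same reads again. With both rows summed, miR-30a-5p held 66.7%, miR-30c-5p 14.0% and miR-30d-5p 12.7%. The strand miR-30a-3p added 2.12% and miR-30b-5p 1.09%. The remaining 6 names each held less than 1% of the sum.

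The order of mean levels was miR-30a-5p (rank 5 of all rows), miR-30d-5p (rank 18, 5720 RPM), miR-30c-5p (rank 26, 3033 RPM), miR-30e-5p (rank 40, 1356 RPM), miR-30a-3p (rank 53, 934 RPM), miR-30b-5p (rank 71, 434 RPM) and miR-30e-3p (rank 92, 192 RPM). Below them stood miR-30c-2-3p (52.8 RPM), miR-30d-3p (23.3 RPM), miR-30c-1-3p (10.5 RPM), miR-30b-3p (8.47 RPM) and miR-30f (0.331 RPM, 1 to 10 reads per library). Small RNA counts are not corrected for how well each sequence is ligated, so this is an order of reads. In 4 of the 11 neighbouring pairs the ranges over libraries overlapped. Of these, miR-30d-5p exceeded miR-30c-5p in 32 of 32 libraries, miR-30a-3p exceeded miR-30b-5p in 31, and miR-30e-5p exceeded miR-30a-3p in 30. The first of these orders rests on the use of 1 miR-30c-5p row. With both rows summed the mean of miR-30c-5p was 6066 RPM, above that of miR-30d-5p, with the same reads possibly counted again. The least separated pair was miR-30c-1-3p and miR-30b-3p, with the former higher in 23 of 32 libraries.

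**Figure D1:**
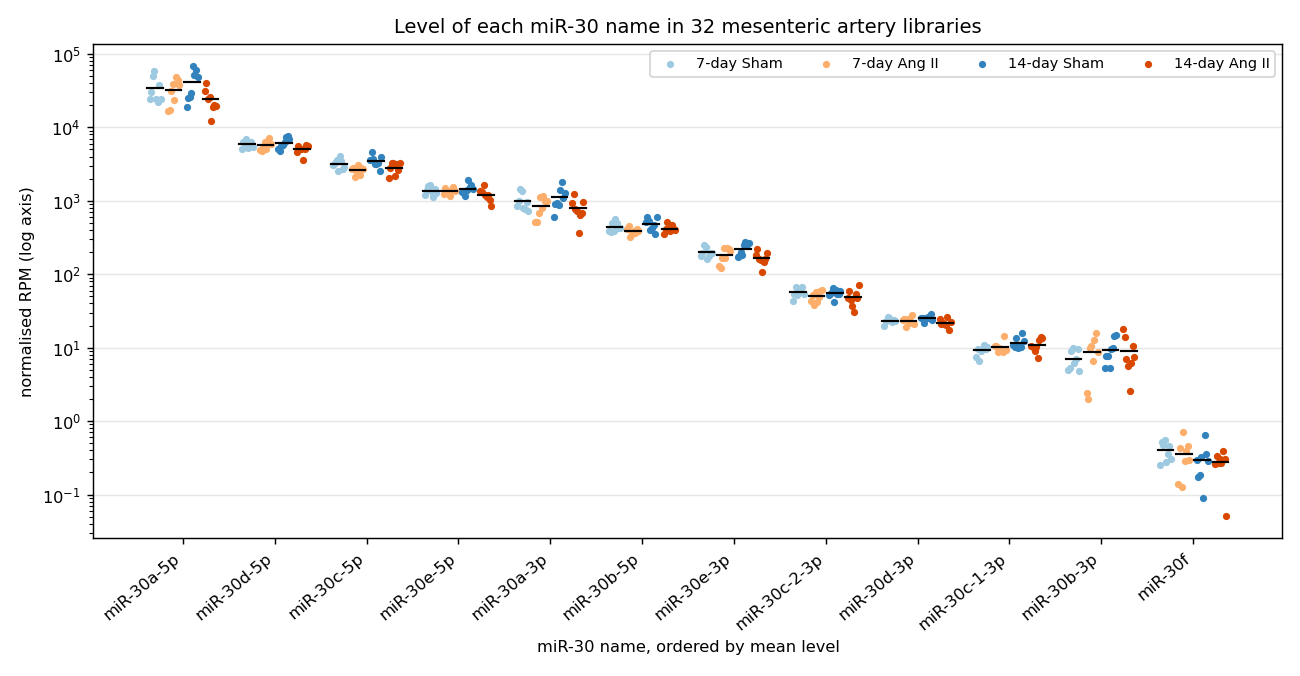
Level of each of the 12 miR-30 names in each library, in normalised RPM on a log axis, with the 4 groups in colour and a bar at each group mean (n = 8). The levels span from 67555 RPM for miR-30a-5p in a 14-day sham library to 0.0512 RPM for miR-30f in a 14-day Ang II library, and within each name the 4 groups overlap.

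The names also differed in how much libraries of 1 group varied. The coefficient of variation of miR-30a-5p was 35.4 to 44.4% in the 4 groups, and that of miR-30a-3p 27.6 to 33.4%. By contrast, miR-30d-3p had 8.11 to 12.4% and miR-30e-5p 8.63 to 19.8%, at 247 to 687 and 14013 to 37688 reads per library. No library held fewer than 244492 reads of miR-30a-5p. The low miR-30b-3p, with 28 to 207 reads, had 30.2 to 55.7%.

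The first comparison asked how 7 days of Ang II altered the family. No miR-30 name passed the test. The strand with the smallest p was miR-30c-5p, and miR-30a-5p differed little in mean. Of the 11 tested names 9 had a log2 fold change (Ang II minus sham) below 0, where 53.4% of all 543 tested rows did. The median was -0.09 over the family and -0.01 over all rows. With limma, 0 of 11 names were called at a Benjamini-Hochberg adjusted p under 0.05, against 0.184% of all rows, and 1 of 11 had an unadjusted p under 0.05, against 6.81%. On the recovered reads edgeR and DESeq2 also called 0 of 11, and each called 0.184% of all rows.

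The guide miR-30c-5p had a lowest, median and highest value of 2535, 3194 and 4088 RPM in 7-day sham and of 2112, 2716 and 3049 RPM in 7-day Ang II. All 8 Ang II libraries lay below the sham median, 5 sham libraries lay above every Ang II library, and the groups overlapped. The means were 3203 ± 508 and 2602 ± 318 RPM (SD, n = 8 each), a log2 fold change of -0.29 ± 0.12 (SE) with a limma adjusted p of 0.496. Another guide strand, miR-30b-5p, averaged 447 ± 68.6 RPM in sham and 385 ± 42.0 RPM in Ang II (SD, n = 8 each). Here 7 of 8 Ang II libraries lay below the sham median, at a log2 fold change of -0.21 ± 0.11 (SE, limma adjusted p = 0.756).

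The abundant miR-30a-5p ran from 21877 through a median of 27323 to 59055 RPM in 7-day sham and from 16487 through 34427 to 48007 RPM in 7-day Ang II. The Ang II group had the higher median and the lower mean, and 2 of its libraries were below all sham libraries. The log2 fold change amounted to -0.09 ± 0.28 (SE) with a limma adjusted p of 0.971 and a 95% interval of -0.67 to 0.48. Within number series 27 (4 sham and 5 Ang II libraries) the value was -0.67, and within series 28 (4 and 3) it was 0.69. The pooled value thus joined opposite directions. All 7-day Ang II libraries of series 28 were in class 1 and most of its 7-day sham libraries in class 2. Within class 1 and class 2 the miR-30a-5p value was -0.30 and -0.39. The part of the classes in the difference between series was not tested. For miR-30c-5p the same series gave -0.25 and -0.35. Over the family, 10 of 11 names lay below 0 within series 27 and 3 of 11 within series 28.

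The other names gave 7-day log2 fold changes between -0.25 (miR-30a-3p) and 0.13 (miR-30c-1-3p), all with a limma adjusted p of at least 0.86. The guides miR-30d-5p and miR-30e-5p had -0.07 ± 0.11 and -0.0024 ± 0.11 (SE). The 3p strands miR-30c-2-3p, miR-30e-3p, miR-30d-3p and miR-30b-3p had -0.18, -0.13, -0.02 and 0.08.

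Beside these 7-day values, all 4 smooth muscle markers (both strands of miR-143 and miR-145a) were below 0, with a median log2 fold change of -0.23, and 1 was called lower, the single call among the 543 rows. Their summed level ran from 374113 to 645607 RPM in 7-day sham and from 307291 to 728925 RPM in 7-day Ang II. The epithelial and endothelial markers had medians of -0.15 and -0.12 and the red blood cell markers 0.40, with none called. Their part in the miR-30 values was not tested.

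After 14 days of Ang II every tested miR-30 name had a lower mean log2 level than in 14-day sham, and none passed the test. The widest difference was that of miR-30a-5p, at 0.608-fold, followed by its partner strand miR-30a-3p at 0.706-fold and miR-30e-3p at 0.748-fold. The guides miR-30c-5p, miR-30d-5p, miR-30e-5p and miR-30b-5p stood at 0.802, 0.814, 0.831 and 0.870-fold. With limma 0 of 11 names were called, where 6.45% of all rows were called and 2.03% were called lower. An unadjusted p under 0.05 was found for 7 of 11 names and for 25.8% of all rows. On the recovered reads edgeR and DESeq2 called 0 of 11 names too, beside 10.1% and 11.2% of all rows.

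The 11 names had a median log2 fold change of -0.27 at 14 days, while 49.9% of all rows were below 0 and their median was 0.0021. The sign rested on the scaling for 6 names. With libraries scaled to their read totals alone, the median of all rows moved to 0.23, and miR-30b-5p, miR-30e-5p, miR-30b-3p, miR-30c-1-3p, miR-30c-2-3p and miR-30d-3p lay above 0. The names that stayed below 0 ran from -0.45 for miR-30a-5p to -0.026 for miR-30d-5p. The fit with library totals called 0 of 11 names and 4.24% of all rows. Relative to the median of all rows, 11 of 11 names were below under the authors' scaling, under RLE size factors and under library totals, by 0.07 to 0.72 on the log2 scale. A change of scaling moves all rows by nearly the same amount, so the likeness of these 3 results was given in advance. It does not show which sign is right.

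At 14 days miR-30a-5p spread from 19220 through a median of 39490 to 67555 RPM in sham and from 12079 through 22232 to 39712 RPM in Ang II. In 7 of 8 Ang II libraries the value was below the sham median, and 4 sham libraries exceeded every Ang II library, while the groups overlapped. The means were 41056 ± 18210 and 24065 ± 8526 RPM (SD, n = 8 each), with a log2 fold change of -0.72 ± 0.28 (SE, limma adjusted p = 0.109). As a share of reads the means were 3.75% ± 0.988 in sham and 2.70% ± 0.436 in Ang II (SD, n = 8 each). Within series 26, with 6 sham and 5 Ang II libraries, the log2 fold change was -0.41. Outside that series, sham libraries had 59762 and 49211 RPM and Ang II libraries 19047, 20071 and 19741 RPM. The pooled value thus joined libraries of series that were unbalanced by treatment. With the series as a term, limma called 0 of 11 names and 6.81% of all rows.

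The smallest adjusted p at 14 days belonged to miR-30e-3p. Its values ran from 172 through 224 to 273 RPM in sham and from 109 through 160 to 219 RPM in Ang II. All 8 Ang II libraries were below the sham median and 5 were below every sham library, with overlap of the rest. The log2 fold change was -0.42 ± 0.15 (SE, limma adjusted p = 0.0705), and -0.36 within series 26. Without the second 14-day Ang II library it passed, at -0.48 with a limma adjusted p of 0.0443. That was 1 of 16 fits that left out 1 library, and over these the adjusted p reached 0.161. With library totals the log2 fold change was -0.15 (limma adjusted p = 0.412).

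For miR-30c-5p the 14-day values were 2570, 3435 and 4603 RPM (lowest, median, highest) in sham and 2033, 2952 and 3321 RPM in Ang II. Again all 8 Ang II libraries lay below the sham median. The means were 3508 ± 613 and 2819 ± 513 RPM (SD, n = 8 each), a log2 fold change of -0.32 ± 0.12 (SE, limma adjusted p = 0.0961). As a share of reads its means were 0.355% and 0.337%, and with library totals the log2 fold change was -0.05.

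The guide miR-30d-5p ran from 4782 through 6076 to 7744 RPM in 14-day sham and from 3551 through 5143 to 5743 RPM in 14-day Ang II. No Ang II library reached the sham median, at a log2 fold change of -0.30 ± 0.11 (SE, limma adjusted p = 0.0909). As a share of reads the means of miR-30d-5p were 0.602% and 0.593%, and with library totals the log2 fold change was -0.026. For miR-30e-5p, 3 Ang II libraries were below every sham library, with a log2 fold change of -0.27 ± 0.11 (SE, limma adjusted p = 0.124). For miR-30b-5p 7 of 8 Ang II libraries were below the sham median, at -0.20 ± 0.11 (SE, limma adjusted p = 0.23). Among the 3p strands, miR-30a-3p had -0.50 ± 0.23 and miR-30d-3p -0.21 ± 0.085 (SE), while miR-30c-2-3p, miR-30b-3p and miR-30c-1-3p had -0.21, -0.14 and -0.09.

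**Figure D2:**
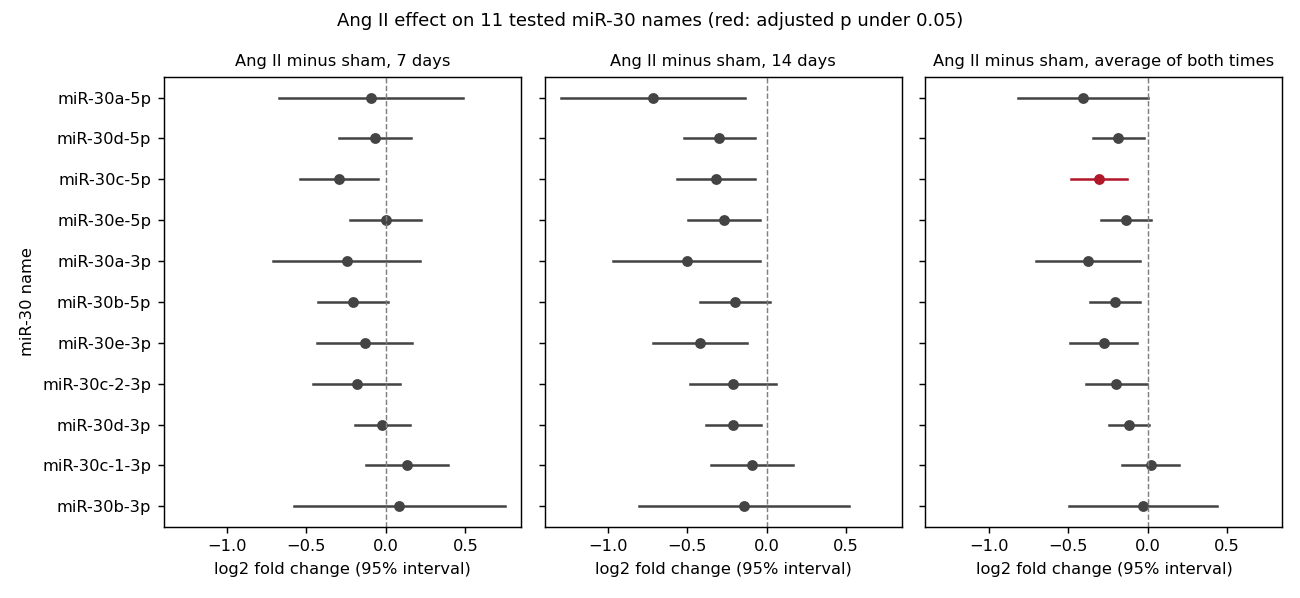
Log2 fold change of Ang II against sham for the 11 tested miR-30 names at 7 days, at 14 days and averaged over both times, with 95% limma intervals. Every 14-day point lies left of 0 on the authors' scaling, 7 of the 14-day intervals exclude 0 before adjustment, and the single red point is miR-30c-5p in the average, at -0.31.

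Markers of cell types were also set beside the 14-day values. Of the 4 smooth muscle markers 3 were below 0, with a median log2 fold change of -0.07 and none called. Their sum was 317571 to 739444 RPM in 14-day sham and 196039 to 565287 RPM in 14-day Ang II. All 6 epithelial markers (the miR-200 family and miR-203-3p) were below 0, with a median log2 fold change of -0.71 and 1 called. Their summed level ran from 1333 to 4996 RPM in 14-day sham and from 1117 to 1747 RPM in 14-day Ang II. Both endothelial miR-126 strands were below 0 with a median of -0.33, and their sum was 16900 to 35282 RPM in sham and 12975 to 25109 RPM in Ang II. The 4 red blood cell markers had a median of 0.99 with 2 called higher, and a sum of 5948 to 50259 RPM in sham and 14971 to 53131 RPM in Ang II. The 4 leukocyte markers found in the table had a median of 0.34 and none called. The part of these cell types in the miR-30 values was not tested.

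Averaged over both times, 1 name passed. With Ang II, miR-30c-5p was lower by 0.31 on the log2 scale (0.809-fold, SE 0.085, 95% interval -0.48 to -0.13, limma adjusted p = 0.0222). All 16 Ang II libraries were below the sham median of their own time. This count restates the values behind the call, and its share over all rows was not computed. In all, 1 of 11 names was called, where 7.37% of all rows were called and 2.03% were called lower. A single call among 11 names does not set the family apart from all rows. The call was made in each of the 32 fits that left out 1 library, at adjusted p from 0.0148 to 0.0436. It was also made by edgeR, which called 1 of 11 names and 9.58% of all rows. It was not made with libraries scaled to their totals alone, which called 0 of 11 names and 4.24% of all rows, and where the value was -0.15 with a limma adjusted p of 0.688. Under that scaling the median of all rows was 0.11, and relative to it miR-30c-5p was at -0.26, against -0.28 under the authors' scaling. The likeness of these 2 values follows from how scaling moves all rows and is no further support.

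Of the other names, miR-30b-5p averaged -0.20 ± 0.076 (SE, limma adjusted p = 0.0872) and miR-30e-3p -0.28 ± 0.10 (SE, limma adjusted p = 0.0852). Below 0 were 10 of 11 names against 52.5% of all rows, and the exception was miR-30c-1-3p at 0.019. With DESeq2, which called 12.9% of all rows, miR-30b-5p was called together with miR-30c-5p, at adjusted p of 0.0209 and 0.00481. In 1 of the 32 fits that left out 1 library, the seventh 14-day sham, limma also called miR-30b-5p, at an adjusted p of 0.0419.

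The test of a difference between times, the 14-day minus the 7-day Ang II effect, called 0 of 11 names and 0% of all rows with limma, edgeR and DESeq2. No name had an unadjusted p under 0.05, against 4.6% of all rows, and 10 of 11 names were below 0, against 47.5%. The smallest p values were those of miR-30e-5p, at -0.27 ± 0.16 (SE, limma adjusted p = 0.804), and miR-30d-3p, at -0.19 ± 0.12 (SE, limma adjusted p = 0.804). For miR-30a-5p, whose 7-day and 14-day values were -0.09 and -0.72, the difference was -0.62 ± 0.40 (SE), with a 95% interval of -1.44 to 0.19. For miR-30c-5p it was -0.02 ± 0.17 (SE), with an interval of -0.37 to 0.32.

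Between the sham groups, 14 against 7 days, 0 of 11 names and 0% of all rows were called with limma. edgeR and DESeq2 also called 0 of 11 names, and each called 0.184% of all rows. The strand miR-30c-1-3p had the smallest p, with 9.16 ± 1.44 RPM in 7-day and 11.7 ± 2.07 RPM in 14-day sham (SD, n = 8 each). All 8 14-day libraries were above the 7-day median, at 0.32 ± 0.13 on the log2 scale (SE, limma adjusted p = 0.996). It was the 1 name of 11 with an unadjusted p under 0.05, against 3.31% of all rows. Below 0 lay 1 of 11 names, against 49.4% of all rows. Next came miR-30d-3p, at 0.11 ± 0.085 (SE, limma adjusted p = 0.996).

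The summed family level was 46394 ± 14719 RPM in 7-day sham, 43278 ± 12820 in 7-day Ang II, 54162 ± 19287 in 14-day sham and 34608 ± 9268 in 14-day Ang II (SD, n = 8 each). As a share of reads it was 4.39%, 4.18%, 5.04% and 3.95% in the same order. Because of the weight of miR-30a-5p, the sum largely repeats that strand. The share of miR-30a-5p in the sum was 73.6% ± 7.31 in 14-day sham and 68.2% ± 6.12 in 14-day Ang II (SD, n = 8 each), with ranges that overlapped.

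The ratio of the 2 strands of a hairpin within a library, taken on the values themselves, does not depend on the scaling. The median 5p to 3p ratio was 33.4 for miR-30a, 56.8 for miR-30b, 252 for miR-30d and 7.04 for miR-30e. Reads of miR-30c-5p were 287 times those of miR-30c-1-3p and 56.5 times those of miR-30c-2-3p in the median, with both 3p strands set against the same 5p row. By reads, miR-30e thus had the most 3p strand for its 5p strand, with ratios of 4.35 to 12.2 over the 32 libraries. Its range overlapped none of the others. As miR-30e-3p (192 RPM) differs at 1 base from miR-30a-3p (934 RPM), the unstated assignment of reads leaves this ratio uncertain.

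For the tests the ratio was taken as the difference of log2(value + 1), which for strands near 10 RPM does depend to some extent on the scaling and on the added 1. Ang II moved no arm ratio past the threshold at 7 days, at 14 days or in the difference between them. That was so for 0 of 6 miR-30 pairs and 0% of 133 hairpin pairs by limma, and an unadjusted p under 0.05 was found for 4.51%, 10.5% and 5.26% of all pairs. The pair with the smallest p was miR-30c-5p to miR-30c-1-3p at 7 days, the 1 miR-30 pair with an unadjusted p under 0.05. Its log2 ratio was 8.30 ± 0.330 in sham and 7.87 ± 0.205 in Ang II (SD, n = 8 each), a difference of -0.43 ± 0.16 (SE, limma adjusted p = 0.802). The miR-30a ratio differed by 0.15 ± 0.14 at 7 days and by -0.21 ± 0.14 at 14 days (SE, limma adjusted p = 0.994 and 0.628).

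Libraries of the same group differed widely in the balance between miR-30a-5p and miR-30c-5p. In class 1 miR-30a-5p ran from 31391 through a median of 43625 to 67555 RPM, and in class 2 from 12079 through 24193 to 51860 RPM. One class 2 library lay above the lowest class 1 library. For miR-30c-5p the order was the other way, with medians of 2685 RPM in class 1 and 3231 RPM in class 2. The ratio of the former to the latter, which is free of scaling, had a median of 15.6 in class 1 (range 12.4 to 23.3) and 6.85 in class 2 (range 5.39 to 15.7).

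The classes also differed in the totals of the deposited columns, which were 1.15 to 1.67 M in class 1 and 0.727 to 1.24 M in class 2, at 12.0 to 16.7 and 11.4 to 18.8 M reads. Both classes were found in all 4 groups and in series 26, 27 and 28. As a share of reads, the median of miR-30a-5p in class 1 was 1.29 times that in class 2, against 1.8 times in RPM. For miR-30c-5p the same ratios were 0.559 and 0.831. What the component stands for was not tested. The medians of the ratio were 8.74 in 7-day sham, 14.4 in 7-day Ang II, 10.9 in 14-day sham and 7.52 in 14-day Ang II, with ranges that overlapped between all 4 groups.

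**Figure D3:**
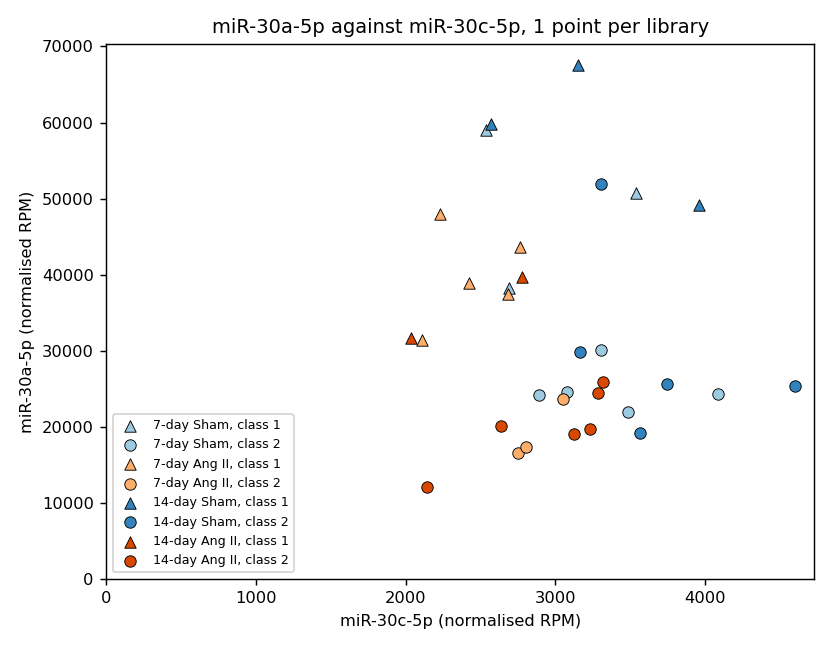
Normalised RPM of miR-30a-5p against miR-30c-5p, 1 point per library, with groups in colour and the 2 component classes as triangles (class 1, 13 libraries) and circles (class 2, 19 libraries). The triangles lie at 31391 RPM or above on the miR-30a-5p axis, and 1 circle lies among them.

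The Ang II values were also computed within each class, without a call. At 14 days miR-30a-5p had a log2 fold change of -0.72 in class 1, with 3 sham and 2 Ang II libraries, and -0.55 in class 2, with 5 sham and 6 Ang II libraries. At 7 days the values were -0.30 and -0.39, against -0.09 when pooled. For miR-30c-5p the 14-day values were -0.42 and -0.32 and the 7-day values -0.25 and -0.22. The class was taken from the spread that this same group fit left over. Used as a term, it removes spread by construction, so p-values of that fit are too small and serve as description only. With the class as a term in the fit, limma called 3 of 11 names at 14 days, where 14.7% of all rows were called. These were miR-30a-5p (-0.59, adjusted p = 0.0155), miR-30e-3p (-0.37, adjusted p = 0.0229) and miR-30c-5p (-0.35, adjusted p = 0.0322). In the average effect 6 of 11 names were called, all lower, where 23.8% of all rows were called: miR-30a-5p, miR-30a-3p, miR-30b-5p, miR-30c-5p, miR-30d-5p and miR-30e-3p.

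Deviations from the group means sorted the strands into sets that matched the genomic pairs only in part. The correlations below are Pearson r over 32 libraries on the log2(value + 1) scale. They are descriptions, since the libraries share depth, scaling and class. The deviations of miR-30a-5p went with those of miR-30a-3p (r = 0.89), miR-30e-3p (0.89), miR-30b-3p (0.81) and miR-30d-5p (0.78). Within class 1 these 4 values were 0.72, 0.62, 0.054 and 0.44, and within class 2 they were 0.88, 0.82, 0.65 and 0.81.

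The guides miR-30b-5p and miR-30c-5p went together (r = 0.80, 0.91 in class 1 and 0.67 in class 2), although their hairpins are on different chromosomes. Both were unlike miR-30a-5p (r = -0.35 and -0.33), whose hairpin is next to Mir30c-2, and within the classes these values were between -0.20 and 0.17. The closest pair of all was miR-30a-3p and miR-30e-3p (r = 0.94, 0.89 in class 1 and 0.91 in class 2), which differ at 1 base. The other pair that differs at 1 base, miR-30a-5p and miR-30e-5p, had r = 0.65 (0.80 in class 1 and 0.35 in class 2). The 2 strands of 1 hairpin were less alike for miR-30e (r = 0.35), miR-30d (0.23) and miR-30b (-0.21) than for miR-30a.

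**Figure D4:**
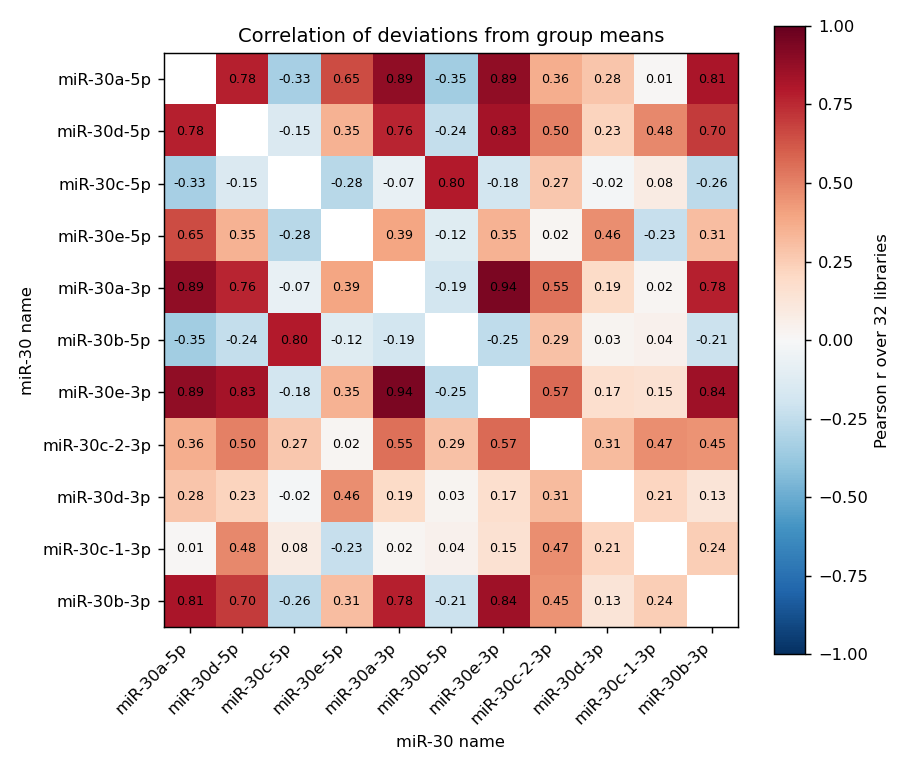
Pearson r between the 11 tested miR-30 names over 32 libraries, after subtracting group means from log2(value + 1). Red cells join miR-30a-5p, miR-30d-5p, miR-30a-3p, miR-30e-3p and miR-30b-3p at r of 0.70 or more, and a separate red cell joins miR-30c-5p and miR-30b-5p at 0.80.

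Among 270 rows outside the family with a mean of at least 10 RPM, those most like miR-30a-5p in these deviations were Novel_z_27 (r = 0.99), miR-125b-2-3p (0.96), miR-10b-5p (0.95), miR-152-3p (0.95) and miR-191-5p (0.94). The file gives no sequence or place for Novel_z_27, which had a mean of 34.2 RPM. Within the classes the first 3 kept r of 0.80 to 0.98. In class 1 and class 2, miR-152-3p had 0.74 and 0.89 and miR-191-5p 0.59 and 0.87. Those most like miR-30c-5p were miR-145a-5p (r = 0.72), let-7a-5p (0.70), miR-23b-3p (0.67), let-7g-5p (0.64) and let-7c-5p (0.62). Within the classes their r ran from 0.29 (let-7c-5p, class 2) to 0.80 (let-7a-5p, class 1). All 10 were chosen from these libraries by their likeness.

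Other broadly expressed families were set beside the miR-30 names at 14 days. The 19 let-7 names had a median log2 fold change of 0.0048 with 9 below 0, the 5 miR-29 names -0.23 with 4 below 0, and the 4 miR-26 names 0.035 with 1 below 0, which was called lower. No let-7, miR-29 or miR-30 name was called at that time. The 11 miR-30 names, with -0.27 and 11 below 0, share control libraries with each of these, and the difference between families was not tested.

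The lowest name, miR-30f, was read in each of the 32 libraries but at no more than 10 reads. Its means were 0.401 ± 0.117 RPM in 7-day sham, 0.353 ± 0.186 in 7-day Ang II, 0.295 ± 0.170 in 14-day sham and 0.274 ± 0.0994 in 14-day Ang II (SD, n = 8 each). In each comparison the ranges of the groups overlapped, and differences between them were not tested.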

How the data were processed

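Small RNA libraries were made from total RNA of mesenteric arteries with a TruSeq small RNA kit, per the labels' protocols. The submitters' processing notes list STAR 2.3.1 and edgeR 3.6.8 among their tools and mm10 as the build, without the role of each. Strand handling and the assignment of reads with several matches are not given in the sources used here. The deposited table holds 1 normalised signal value per row and library. Of the values above 0, 100% were whole multiples of the library's step within 0.001 read, so whole reads were recovered from the deposited signal, and the values are called normalised RPM. The table had 1722 rows, 364 of them at 0 throughout, and 1030 distinct rows after repeats were reduced.

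The 543 rows that averaged 1 RPM or more were fitted with limma 3.58.1 (R 4.3.3, trend, log2(value + 1), 1 model for 4 groups), with Benjamini-Hochberg adjustment over all 543 and a two-sided threshold of 0.05. Fold changes on this scale understate those of low rows. Arm ratios were fitted over 133 hairpin pairs. The fitting steps were run on simulated counts, drawn row by row without the shared component or the number series of these libraries. That run does not show how the fits behave with them. Alternatives were RLE and library-total scaling, filters, pseudocounts, covariates, edgeR 4.0.16, DESeq2 1.42.0, the compared groups alone, and leaving out each library. Values within component classes were chosen after seeing the data.

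The members, lists and tests were chosen with earlier results of these data known. Every miR-30 row was named for both Ang II comparisons. For the other comparisons the called names were named, or the 2 with the smallest p. For likeness the 5 most correlated rows were named. The limit of 3 reads covers counting error only, because the libraries carried no molecular identifiers that would tell PCR copies apart.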

Additional observations from a re-analysis of the deposited data

Results flagged for a closer look

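In 3 of 48 sets of 8 libraries (12 names in 4 groups, 6.25%) 1 library stood apart from the others by more than Dixon's 95% limit, which chance passes in about 1 of 20 sets. In 7-day Ang II, miR-30c-1-3p was highest in replicate 7 at 14.2 RPM (154 reads), with the next library at 10.7 RPM. The very low miR-30f was highest in 14-day sham replicate 6 at 0.654 RPM (9 reads), with the next at 0.351 RPM, and lowest in 14-day Ang II replicate 8 at 0.0512 RPM (1 read), with the next at 0.262 RPM. None of the abundant strands was among them.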

How the results depend on the processing

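Over all alternatives 1099 single values were computed, of which 1055 kept their direction. The count of called miR-30 names stayed at 0 for 7 days, for the difference between times, for the sham comparison and for the arm ratios in every alternative run. At 14 days it was 3 with the component class as a term, and 0 to 1 when single libraries were left out. For the average it was 6 with that term, 2 with DESeq2, 0 with library totals alone, and 1 to 2 when single libraries were left out. The counts with the class term are description only, because the class came from the same libraries and fit. miR-30c-5p kept its direction in all of its alternatives.

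Scaled to library totals alone, values above 0 appeared at 14 days for miR-30b-5p (0.069), miR-30b-3p (0.090), miR-30c-1-3p (0.15), miR-30c-2-3p (0.053), miR-30d-3p (0.049) and miR-30e-5p (0.0030), at 7 days for miR-30d-3p (0.021) and miR-30e-5p (0.042), and in the difference between times for miR-30d-3p (0.028), while the median of all rows moved by 0.23 at 14 days. Within number series 28, 7-day values were above 0 for miR-30a-5p (0.69), miR-30a-3p (0.36), miR-30e-3p (0.25), miR-30e-5p (0.17), miR-30d-5p (0.16) and miR-30d-3p (0.011). For miR-30b-3p the 7-day value was -0.34 within series 27, -0.18 with the class term and -0.62 within class 2, and the 14-day value 0.086 within series 26 and 0.29 within class 1. Within class 2, miR-30d-3p (0.058) and miR-30e-5p (0.038) at 7 days and miR-30c-1-3p (0.0033) at 14 days were above 0. edgeR gave miR-30e-5p 0.0040 at 7 days, and the class term gave the 7-day miR-30b arm ratio 0.0035. The cause of these changes was not tested.

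With single libraries left out, 7-day values ran from -0.19 to 0.033 for miR-30a-5p, -0.045 to 0.036 for miR-30e-5p, -0.059 to 0.013 for miR-30d-3p and -0.061 to 0.29 for miR-30b-3p. The 14-day value of miR-30b-3p ran from -0.30 to 0.042. The miR-30d arm ratio change ran from -0.080 to 0.0013 at 7 days and that of miR-30b from -0.23 to 0.13 at 14 days. Over all rows, 14-day calls numbered 35 as reported, 80 with the class term, 61 with DESeq2, 55 with edgeR, 23 with library totals, 17 with no filter and 3 in the compared groups alone. Average calls numbered 40, 129, 70, 52, 23 and 32 in the same order of the first 6 settings. Higher calls made up 24 of 35 at 14 days as reported and 22 of 23 with library totals. Summing both miR-30c-5p rows gave a family level of 47643 RPM against 44610 RPM. It also put miR-30c-5p above miR-30d-5p, at 14.0% and 12.7% of the sum, which may count the same reads again.

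No paired analysis was possible because the labels give no replicate numbers shared between groups. Depth limits miR-30b-3p, miR-30c-1-3p and miR-30f, which had at most 207, 279 and 10 reads in a library.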
